A study of Mus musculus with 12 samples.

Results

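Metallothioneins and zinc handling are described here through 7 genes, Mt1, Mt2, Mt3, Mtf1, Slc30a1, Slc39a10 and Slc39a14, out of 15002 genes listed in the series. The members were taken by gene symbol, and all 7 were found and passed the filter on low counts. The set was chosen by the level of Mt3, which was lower in siR_Nostrill + IFN-γ than in siR_Ctrl + IFN-γ. That contrast is therefore given for the members as a description, without a test, and so are the other contrasts of Mt3.

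RNA was sequenced from IEC4.1, a wild-type line from newborn mice labelled as intestinal epithelial, so that all libraries come from 1 cell line. The 4 groups of 3 libraries were siR_Ctrl (scrambled siRNA), siR_Ctrl + IFN-γ, siR_Nostrill (a pool of 3 siRNAs against the long non-coding RNA Nostrill, 40 nM each) and siR_Nostrill + IFN-γ. Transfection lasted 24 h and IFN-γ was given at 1 ng/ml for 4 h, while the sample labels list only a time of 24 h. The comparisons asked what IFN-γ changed under each siRNA, and what Nostrill siRNA changed without and with IFN-γ. Every group carried an siRNA, and untransfected cells were not analysed here.

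Metallothioneins are small cysteine-rich proteins that bind zinc and copper, buffer the free zinc of the cell and take up oxidants. Zinc entering the cell activates the transcription factor Mtf1, which binds metal response elements in front of Mt1, Mt2 and Slc30a1. ZIP transporters (Slc39) carry zinc into the cytosol and ZnT transporters (Slc30) carry it out, and cytokines of inflammation are known to raise metallothioneins and Slc39a14 in several tissues.

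The 3 siRNAs that define the siR_Nostrill groups are shown as their sense strands, with capitals at bases 12 to 18, the stretch that the guide's seed pairs with.
Nostrill-1: ccugggaagaaGCAUUAAu
Nostrill-2: ccaccaggaacACACAAAu
Nostrill-3: gccuauaagucGUUCUAAu
The capital stretch of none of the 3 was found in the longest GENCODE transcript of Mt1, Mt2, Mt3 or Slc39a14. Those of Nostrill-2 and Nostrill-3 occurred 2 times and 1 time in Mtf1 and equally often in Slc30a1, and that of Nostrill-2 occurred 1 time in Slc39a10. Across 14382 genes the stretches were present in 12.6%, 25.4% and 12.8%. These matches are letters in a transcript and do not show that an siRNA bound there. The level of Nostrill was not analysed here, and the knockdown was therefore not checked in these libraries.

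The metallothionein promoters are shown because Mt1, Mt2 and Mt3 lie near one another on chromosome 8 while their levels differ widely. Each sequence is the 250 bases before the RefSeq transcript start on the plus strand of GRCm38.p6, 5′ to 3′, with capitals at matches to TGCACNC or TGCGCNC, the core of the metal response element, on either strand. The window of Mt1 ends at a transcript start, base 94179089, that lies inside the span given for the gene, and 206 of its printed bases belong to that span.
Mt1, chr8:94178839-94179088: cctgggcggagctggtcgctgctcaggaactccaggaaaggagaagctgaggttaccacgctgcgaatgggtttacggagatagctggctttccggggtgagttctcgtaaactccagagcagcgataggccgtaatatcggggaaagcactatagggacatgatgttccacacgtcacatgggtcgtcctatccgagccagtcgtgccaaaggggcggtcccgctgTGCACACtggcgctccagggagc
Mt2, chr8:94172368-94172617: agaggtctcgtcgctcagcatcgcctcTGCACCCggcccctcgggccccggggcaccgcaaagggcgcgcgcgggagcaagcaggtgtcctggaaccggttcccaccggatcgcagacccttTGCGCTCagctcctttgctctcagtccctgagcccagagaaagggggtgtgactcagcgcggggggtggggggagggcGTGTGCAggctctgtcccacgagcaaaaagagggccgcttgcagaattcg
Mt3, chr8:94152357-94152606: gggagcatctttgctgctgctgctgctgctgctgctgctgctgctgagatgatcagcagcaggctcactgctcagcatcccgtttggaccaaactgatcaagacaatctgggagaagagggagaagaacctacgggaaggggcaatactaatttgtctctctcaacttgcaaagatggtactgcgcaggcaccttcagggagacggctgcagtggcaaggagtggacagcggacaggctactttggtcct
Counted over the full RefSeq windows, which add 50 bases after the start, the core occurred 4 times at Mt2, 3 times at Mt1, 2 times at Slc30a1 and 1 time at Mt3. It was not found at Mtf1 or in either window of Slc39a10, and Slc39a14 is not listed in the table. Of 32841 such windows, 25.7% held at least 1 match, 7.12% at least 2, 1.97% at least 3 and 0.518% at least 4, and no match in the members' windows overlapped another. A match is a description of the sequence, and its absence says only that the letters are not in this window. At Mt1, the matches at bases 3 and 21 after the start are counted but lie outside the printed sequence. Counts depend on the start that sets the window, and bases further downstream were not searched, so they do not rank the genes.

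Depth was even, with 17824306 to 19093204 reads on genes per library, and the study describes the libraries as biological triplicates. GEO's labels do not say that replicates were separate cultures, so the p-values measure the spread between these libraries. The labelled cell type was checked against its markers: of 5 epithelial markers, Krt8, Krt18 and Krt19 were listed and summed to 1.17 to 3.05 FPKM, while Col1a1, Col1a2 and Pdgfra, which mark stromal cells, summed to 312 to 541 FPKM. The enterocyte markers Vil1 and Fabp2 summed to at most 0.07 FPKM and the goblet marker Muc2 reached at most 0.1 FPKM. These values go against the epithelial label, and the cells are called IEC4.1 here. In such bulk RNA, fewer cells of a type and less RNA per cell cannot be told apart. The libraries also differed by transcript length: short transcripts under 500 nt took between 3.45% and 7.61% of the reads, lowest in siR_Ctrl replicate 1 and highest in siR_Ctrl + IFN-γ replicate 2. The metallothioneins, at 302 to 320 nt of effective length, are among the short transcripts and the other members, at 4470 to 7397 nt, among the long ones. Most changes of the members are therefore also given with that length trend removed. The log2 fold changes of other named genes are given without that removal.

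On the FPKM scale, which is per length, the members spanned a wide range. Mt1 was the most abundant in all 12 libraries (689 to 2217 FPKM) and Mt2 came next (294 to 1406 FPKM). The transporter Slc39a14 followed at 12.4 to 23.7 FPKM and Slc39a10 at 3.79 to 9.29 FPKM. Mtf1 (2.16 to 3.73), Mt3 (0.55 to 4.22) and Slc30a1 (0.76 to 1.52) were lowest, and over the 12 libraries the range of Mt3 overlapped those of Mtf1, Slc30a1 and Slc39a10. Mt4 was not listed.

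**Figure D1:**
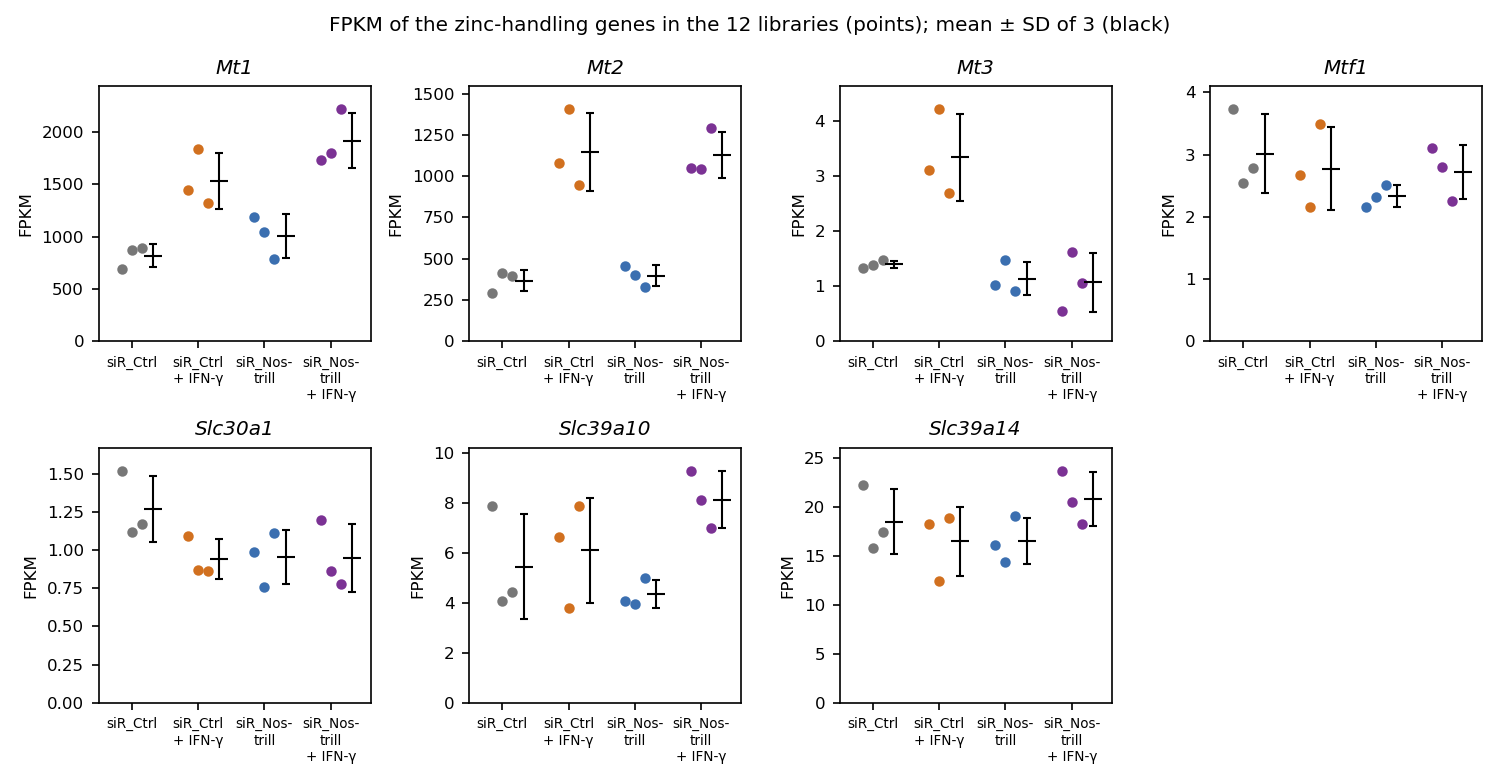
FPKM (vertical axes, each from 0) of the 7 genes in the 12 libraries, by group; points are single libraries, and the black bar and whiskers are the mean ± SD of 3. Mt1 and Mt2 lie higher in both IFN-γ groups, Mt3 lies higher in siR_Ctrl + IFN-γ than in the other 3 groups, and most ranges of the remaining genes overlap.

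Mt1 and Mt2 rose with IFN-γ under both siRNAs, Mt2 by more than Mt1. Mt2 rose 3.27-fold with siR_Ctrl and 2.8-fold with siR_Nostrill. Mt1 rose 1.97-fold and 1.87-fold. The members that carry or sense zinc, Mtf1, Slc30a1, Slc39a10 and Slc39a14, did not pass the test in either comparison. In the edgeR quasi-likelihood test with Benjamini-Hochberg adjustment over 11900 genes, 2 of 7 members passed with siR_Ctrl, where 5.45% of all genes did, and 2 of 7 passed with siR_Nostrill, where 6.78% did.

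Mt2 (gene 17750, chr8:94172618-94173567, plus strand) encodes one of the 2 metallothioneins found in most tissues. Its level was 294, 411 and 396 FPKM in siR_Ctrl and 1082, 1406 and 945 FPKM in siR_Ctrl + IFN-γ. With siR_Nostrill it was 456, 404 and 329 FPKM, and with siR_Nostrill + IFN-γ it was 1052, 1046 and 1291 FPKM. Every IFN-γ-treated library lay above every untreated one. How many of all genes separate groups in this way was not counted, here or for the members below. The log2 fold change with IFN-γ was 1.71 (SE 0.25, edgeR adjusted p = 0.00113) with siR_Ctrl and 1.48 (SE 0.25, adjusted p = 0.00296) with siR_Nostrill. Both changes passed in all 22 alternative analyses, between 1.45 and 1.87 with siR_Ctrl and between 1.32 and 1.82 with siR_Nostrill. The exons of Mt2 share 432 bases with the antisense gene Gm45774, and no source used here states whether counting used strand, so reads of the pair cannot be told apart.

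Mt1 (gene 17748, chr8:94178883-94180327, plus strand) encodes the other of the widely expressed pair. It stood at 689, 872 and 888 FPKM in siR_Ctrl, against 1443, 1836 and 1322 FPKM in siR_Ctrl + IFN-γ. In siR_Nostrill it measured 1191, 1043 and 783 FPKM, against 1733, 1799 and 2217 FPKM in siR_Nostrill + IFN-γ. The groups with and without IFN-γ did not overlap under either siRNA. The log2 fold change was 0.98 (SE 0.24, edgeR adjusted p = 0.0391) with siR_Ctrl and 0.90 (SE 0.24, adjusted p = 0.0495) with siR_Nostrill, both close to the threshold of 0.05. Leaving out 1 library ended the call in 8 of 12 cases with siR_Ctrl (adjusted p up to 0.142, without siR_Ctrl + IFN-γ replicate 2) and in 8 of 12 with siR_Nostrill (up to 0.155, without siR_Nostrill + IFN-γ replicate 3), while the log2 fold change stayed between 0.71 and 1.11. Of the 10 other alternatives, 2 ended the call with siR_Ctrl (adjusted p up to 0.106, with only the groups compared) and 2 with siR_Nostrill (up to 0.0585). With the length trend removed the changes were 0.71 (adjusted p = 0.000351) and 1.25 (adjusted p = 9.33e-07).

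Length moved with these comparisons in opposite directions, as the plot of fold change by length shows. The 316 genes under 500 nt had a median log2 fold change with IFN-γ of 0.23 with siR_Ctrl and -0.35 with siR_Nostrill, against -0.13 and 0.19 for the 3202 genes of 4000 nt or more. The rise of Mt1 and Mt2 exceeded the median of the short genes in both. With the trend removed, the log2 fold change of Mt2 was 1.45 (edgeR adjusted p = 8.57e-09) with siR_Ctrl and 1.82 (adjusted p = 6.09e-10) with siR_Nostrill.

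**Figure D2:**
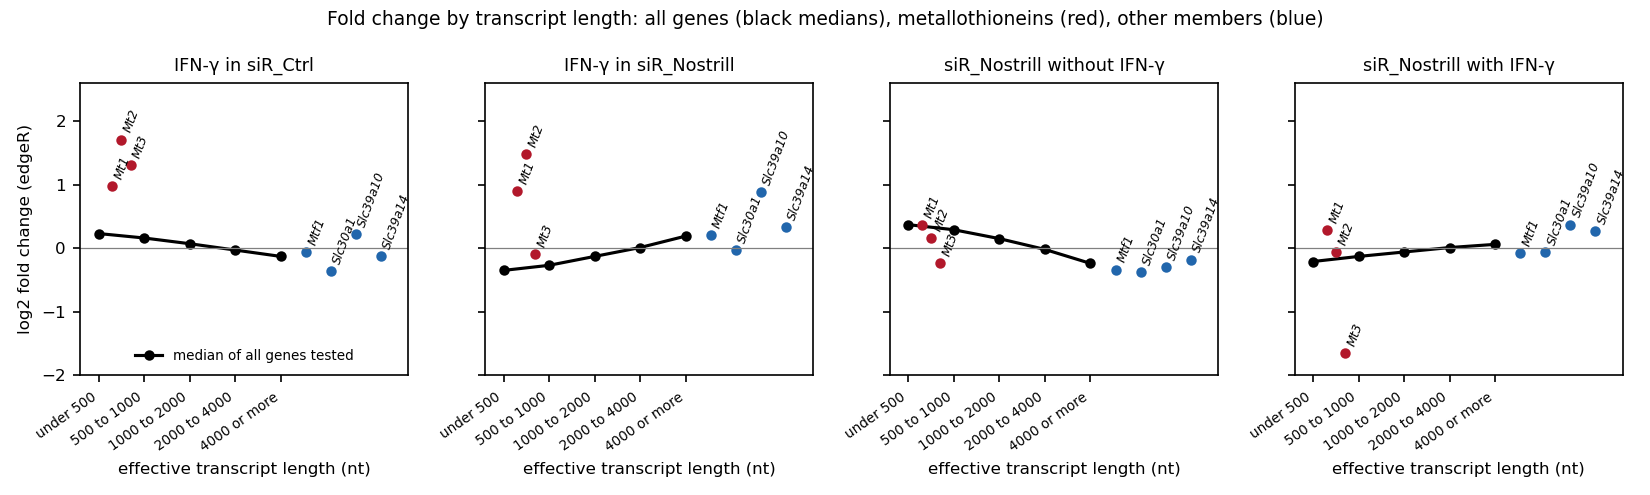
Log2 fold change (vertical axis, edgeR) by effective transcript length in nt (horizontal axis, 5 classes) in 4 comparisons; black points are medians of all genes tested in a class, red points the metallothioneins and blue points the other members, set beside their class. Mt1 and Mt2 lie above the short-gene medians of 0.23 and -0.35 in both IFN-γ comparisons, and near or below the short-gene median of 0.37 in siR_Nostrill without IFN-γ.

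Because Mt1 and Mt2 have nearly equal lengths, their ratio within a library depends little on the length trend. Mt2 stood at 0.427, 0.471 and 0.446 of the Mt1 FPKM in siR_Ctrl and at 0.75, 0.765 and 0.715 in siR_Ctrl + IFN-γ. The ratio was 0.383, 0.387 and 0.421 in siR_Nostrill and 0.607, 0.581 and 0.582 in siR_Nostrill + IFN-γ. Mt2 thus gained on Mt1 in every treated library, and no treated library overlapped an untreated one. The ratio was 1.66-fold higher with IFN-γ under siR_Ctrl and 1.49-fold higher under siR_Nostrill, each at the smallest p that 3 against 3 libraries allow (two-sided exact permutation p = 0.1). With both siRNAs pooled and libraries permuted only within an siRNA, it was 1.57-fold higher (6 against 6 libraries, two-sided exact permutation p = 0.005, the smallest possible). Without IFN-γ the ratio was lower with siR_Nostrill, at 0.886-fold, with no overlap (exact permutation p = 0.1, the smallest possible), and with IFN-γ it was 0.794-fold that of siR_Ctrl + IFN-γ, given without a test. The ratio was examined after the levels of both genes had been seen.

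**Figure D3:**
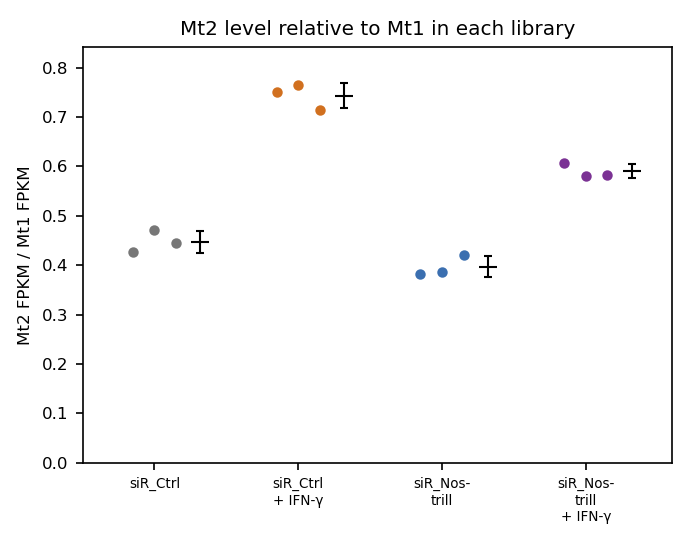
Ratio of Mt2 FPKM to Mt1 FPKM (vertical axis, from 0) in each library (points) by group, with the mean ± SD of 3 libraries (black). The ratios of the IFN-γ groups, from 0.581 to 0.765, lie above those of the untreated groups, from 0.383 to 0.471.

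Mt3 (gene 17751, chr8:94152607-94154148, plus strand) encodes the metallothionein known best from brain. It was near the limit of detection: its reads numbered 7, 8 and 8 in siR_Ctrl, 17, 25 and 15 in siR_Ctrl + IFN-γ, 6, 8 and 5 in siR_Nostrill, and 3, 9 and 6 in siR_Nostrill + IFN-γ. The same libraries gave 1.33, 1.39 and 1.47 FPKM, then 3.11, 4.22 and 2.7 FPKM, then 1.03, 1.48 and 0.91 FPKM, and then 0.55, 1.62 and 1.05 FPKM. The siR_Ctrl + IFN-γ libraries were the highest 3, and the other 3 groups overlapped or lay close together.

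Summed over a group, Mt3 had 23 reads in siR_Ctrl (95% Poisson interval 14.6 to 34.5), 57 in siR_Ctrl + IFN-γ (43.2 to 73.9), 19 in siR_Nostrill (11.4 to 29.7) and 18 in siR_Nostrill + IFN-γ (10.7 to 28.4). These intervals cover counting error only, and not the spread between libraries. Mt3 was chosen by its levels in siR_Ctrl + IFN-γ and siR_Nostrill + IFN-γ, so the gap between their intervals is not a test. Mt3 reached the minimum of 0.551 CPM (counts scaled to library size) in 3 libraries, all of siR_Ctrl + IFN-γ, so it entered the test through the group in which it was high and had to differ.

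As a description of the contrast that chose it, the log2 fold change of Mt3 with siR_Nostrill + IFN-γ against siR_Ctrl + IFN-γ was -1.65 (SE 0.37), which is 0.319-fold. It lay between -2.06 and -1.08 in the 21 alternatives that kept the gene. With IFN-γ it was 1.31 (SE 0.36) in siR_Ctrl and -0.09 (SE 0.45) in siR_Nostrill, and the difference of these changes was -1.41 (SE 0.58). With the length trend removed these values were 1.06, 0.24, with the sign turned, and -0.82. Each shares siR_Ctrl + IFN-γ libraries, siR_Nostrill + IFN-γ libraries or both with the contrast that chose Mt3, and none is separate evidence. The libraries of siR_Nostrill and siR_Ctrl without IFN-γ were not used in the choice. Between them the log2 fold change of Mt3 was -0.24 (SE 0.43), or -0.65 with the length trend removed, on 19 against 23 reads. Mt3 entered this fit only through siR_Ctrl + IFN-γ, so no test of it is given here either. The longest identical run between the Mt3 and Mt1 transcripts was 27 nt, and that between Mt3 and Mt2 was 20 nt.

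Mtf1 (gene 17764, chr4:124802549-124849800, plus strand), the zinc-sensing transcription factor, showed 3.73, 2.54 and 2.78 FPKM in siR_Ctrl and 2.67, 2.16 and 3.49 FPKM in siR_Ctrl + IFN-γ. It showed 2.16, 2.32 and 2.51 FPKM in siR_Nostrill and 3.11, 2.8 and 2.26 FPKM in siR_Nostrill + IFN-γ. The siR_Nostrill libraries lay below all of siR_Ctrl and the other ranges overlapped. Its log2 fold change was -0.06 (SE 0.16, edgeR adjusted p = 0.895) with IFN-γ in siR_Ctrl, 0.20 (SE 0.16, adjusted p = 0.461) with IFN-γ in siR_Nostrill, and -0.34 (SE 0.16, adjusted p = 0.362) with siR_Nostrill without IFN-γ. With the length trend removed both IFN-γ values turned sign, to 0.08 (adjusted p = 0.681) and -0.07 (adjusted p = 0.636), and the last became -0.01 (adjusted p = 0.974). Its exons share 721 bases with 1110065P20Rik on the other strand.

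Slc30a1 (gene 22782, chr1:191906697-191913248, plus strand) encodes ZnT1, the zinc exporter of the plasma membrane. Its levels were 1.52, 1.12 and 1.17 FPKM in siR_Ctrl, 1.09, 0.87 and 0.86 FPKM in siR_Ctrl + IFN-γ, 0.99, 0.76 and 1.11 FPKM in siR_Nostrill, and 1.2, 0.86 and 0.78 FPKM in siR_Nostrill + IFN-γ. All siR_Ctrl libraries lay above all of siR_Ctrl + IFN-γ and all of siR_Nostrill, in the latter case by 1.12 against 1.11 FPKM. The log2 fold change was -0.36 (SE 0.19, edgeR adjusted p = 0.442) with IFN-γ in siR_Ctrl, -0.03 (SE 0.19, adjusted p = 0.934) with IFN-γ in siR_Nostrill, and -0.38 (SE 0.19, adjusted p = 0.368) with siR_Nostrill without IFN-γ, so none passed. With the length trend removed these values were -0.24 (adjusted p = 0.45), -0.2 (adjusted p = 0.452) and -0.17 (adjusted p = 0.606), in the same order. Its exons share 468 bases with the antisense gene 1700034H15Rik.

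Slc39a10 (gene 227059, chr1:46807544-46925776, minus strand) encodes ZIP10, a zinc importer of the plasma membrane. It had 7.88, 4.06 and 4.42 FPKM in siR_Ctrl and 6.64, 3.79 and 7.88 FPKM in siR_Ctrl + IFN-γ. It had 4.08, 3.96 and 4.98 FPKM in siR_Nostrill and 9.29, 8.11 and 6.99 FPKM in siR_Nostrill + IFN-γ. The last group lay wholly above siR_Nostrill, whereas the groups with siR_Ctrl were spread widely and overlapped. Its log2 fold change with IFN-γ was 0.88 (SE 0.25, edgeR adjusted p = 0.0611) in siR_Nostrill and 0.22 (SE 0.25, adjusted p = 0.751) in siR_Ctrl. The first missed the threshold but passed in 6 of 22 alternatives, among them DESeq2 (adjusted p = 0.0134) and the fit with the length trend removed (log2 fold change 0.72, adjusted p = 0.00161). In siR_Ctrl the change was 0.32 (adjusted p = 0.15) with the length trend removed. The difference between the 2 changes was 0.66 (SE 0.35, adjusted p = 0.43), or 0.4 (SE 0.19, adjusted p = 0.263) with that trend removed. The response was therefore not shown to differ between the siRNAs.

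Slc39a14 (gene 213053, chr14:70303467-70351452, minus strand) encodes ZIP14, which carries zinc, iron and manganese. Its levels were 22.2, 15.8 and 17.4 FPKM in siR_Ctrl, 18.2, 12.4 and 18.8 FPKM in siR_Ctrl + IFN-γ, 16.1, 14.4 and 19 FPKM in siR_Nostrill, and 23.7, 20.4 and 18.2 FPKM in siR_Nostrill + IFN-γ. All groups overlapped in the comparisons made. The log2 fold change with IFN-γ was -0.13 (SE 0.17, edgeR adjusted p = 0.787) in siR_Ctrl and 0.33 (SE 0.17, adjusted p = 0.291) in siR_Nostrill, or -0.04 (adjusted p = 0.849) and 0.19 (adjusted p = 0.132) with the length trend removed.

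**Figure D4:**
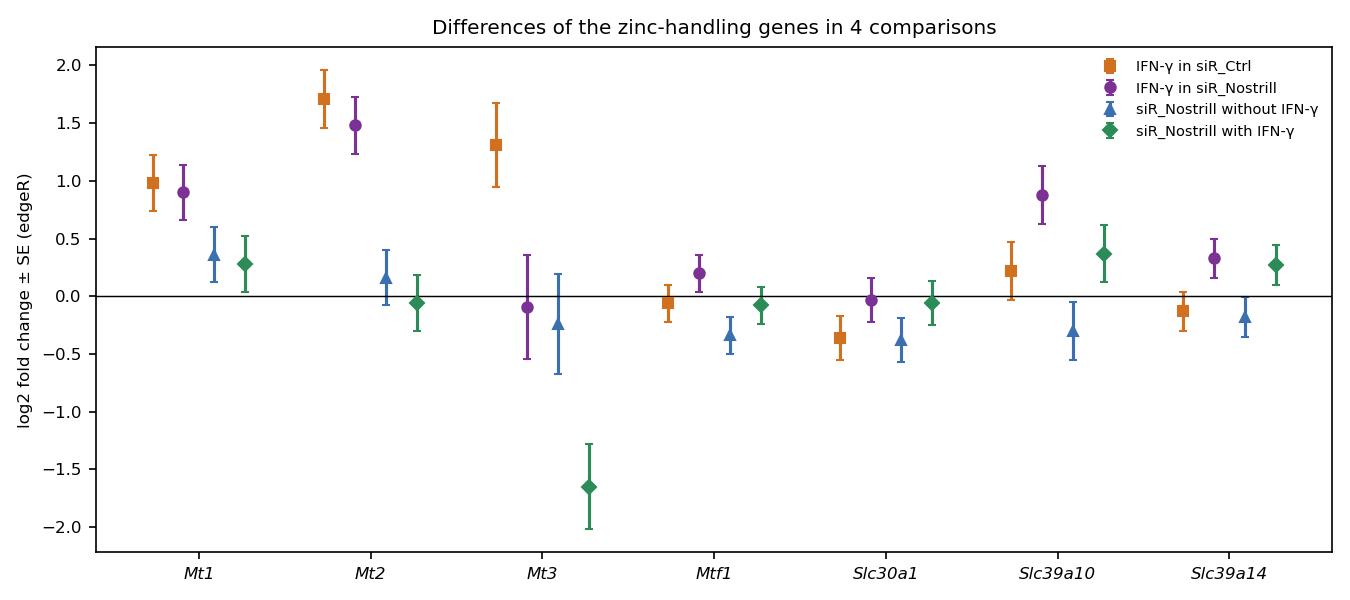
Log2 fold change ± SE from edgeR (vertical axis) of the 7 genes in 4 comparisons (symbols). Mt1 and Mt2 lie well above 0 in both IFN-γ comparisons, the 2 Nostrill comparisons lie between -0.38 and 0.37 for every gene but Mt3, and Mt3 with IFN-γ (-1.65) is the contrast by which the set was chosen.

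Nostrill siRNA without IFN-γ called 0 of 7 members, where 0.218% of all genes were called. That share rests on 26 genes and fell to 0 when any of 5 single libraries was left out. None of the members had an unadjusted p under 0.05 in edgeR, where 13.8% of all genes had. DESeq2 also called 0 members, where it called 2.56% of all genes. Mt3 is included in these counts, although no test of it is given. Mt1 had a log2 fold change of 0.36 (SE 0.24, edgeR adjusted p = 0.434) and Mt2 one of 0.16 (SE 0.24, adjusted p = 0.695). Both were positive before and negative after removal of the length trend, at -0.09 and -0.26, and the short genes as a class had a median of 0.37 in this comparison. The transporters Slc39a10 and Slc39a14 gave -0.30 (SE 0.25, adjusted p = 0.5) and -0.18 (SE 0.17, adjusted p = 0.552), in a comparison where the genes of 4000 nt or more had a median of -0.24. With the length trend removed these 2 transporters gave -0.08 (adjusted p = 0.793) and -0.01 (adjusted p = 0.976).

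With IFN-γ present, the contrast from which Mt3 was picked, 0.429% of all genes were called in edgeR, and no test of the members is given. The log2 fold changes, given without a test, were 0.28 for Mt1, -0.06 for Mt2, -0.08 for Mtf1, -0.06 for Slc30a1, 0.37 for Slc39a10 and 0.27 for Slc39a14, with SE from 0.16 to 0.25. With the length trend removed Mt2 turned sign, to 0.12. The others were then 0.45 for Mt1, -0.16 for Mtf1, -0.13 for Slc30a1, 0.32 for Slc39a10 and 0.23 for Slc39a14. The change with IFN-γ was compared between the siRNAs as an interaction, which called 0 members and 0% of all genes in edgeR and also 0 in DESeq2, although 1277 genes (10.7%) had an unadjusted p under 0.05 in edgeR. The interaction was -0.08 (SE 0.34, adjusted p = 0.901) for Mt1 and -0.22 (SE 0.34, adjusted p = 0.703) for Mt2. With the length trend removed the interaction turned positive, at 0.54 for Mt1 and 0.38 for Mt2, and passed for neither (adjusted p = 0.145 and 0.151). It was 0.26 (SE 0.23, adjusted p = 0.516) for Mtf1, 0.33 (SE 0.27, adjusted p = 0.493) for Slc30a1 and 0.45 (SE 0.25, adjusted p = 0.43) for Slc39a14 in the fit without that removal, and -0.15 (adjusted p = 0.537), 0.04 (adjusted p = 0.935) and 0.23 (adjusted p = 0.308) with it. The rise of Mt1 and Mt2 was therefore not shown to differ between siR_Ctrl and siR_Nostrill, and equally not shown to be the same.

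The zinc transporters were examined as a list. Of 24 ZnT and ZIP genes, 17 were tested, members included, and 1 rose with IFN-γ in siR_Ctrl and 2 in siR_Nostrill, where 5.45% and 6.78% of all genes were called. The median log2 fold change of the 17 was -0.01 and 0.17, against -0.01 and 0.00 over all genes. Slc39a1, which encodes the importer ZIP1, rose in both: it was at 115, 107 and 118 FPKM in siR_Ctrl and 135, 124 and 134 FPKM in siR_Ctrl + IFN-γ, and at 113, 110 and 122 against 139, 140 and 133 FPKM with siR_Nostrill. Its log2 fold change was 0.27 (SE 0.06, edgeR adjusted p = 0.0252) and 0.24 (SE 0.06, adjusted p = 0.0454). In siR_Ctrl this call ended with only the groups compared, with every limma fit, and without siR_Ctrl replicate 1, 2 or 3. In siR_Nostrill it also ended in at least 1 case with a library left out.

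Slc39a6, which encodes the importer ZIP6, a close relative of ZIP10, rose in siR_Nostrill from 21.3, 19.9 and 22.4 FPKM to 32.8, 28.5 and 27.4 FPKM. That was a log2 fold change of 0.46 (SE 0.09, edgeR adjusted p = 0.00893), and in siR_Ctrl it was 0.31 (SE 0.09, adjusted p = 0.0874) with overlapping groups. Without IFN-γ, Nostrill siRNA called 0 of the 17 in edgeR and in DESeq2, where 0.218% and 2.56% of all genes were called. In edgeR 1 of the 17 had an unadjusted p under 0.05, against 13.8% of all genes. The number called with IFN-γ depended on the analysis, from 0 to 3 in siR_Ctrl and from 0 to 6 in siR_Nostrill. The 3 came with DESeq2, where 6.33% of all genes were called in siR_Ctrl. The 6 came with the length trend removed, where 19% of all genes were called in siR_Nostrill.

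**Figure D5:**
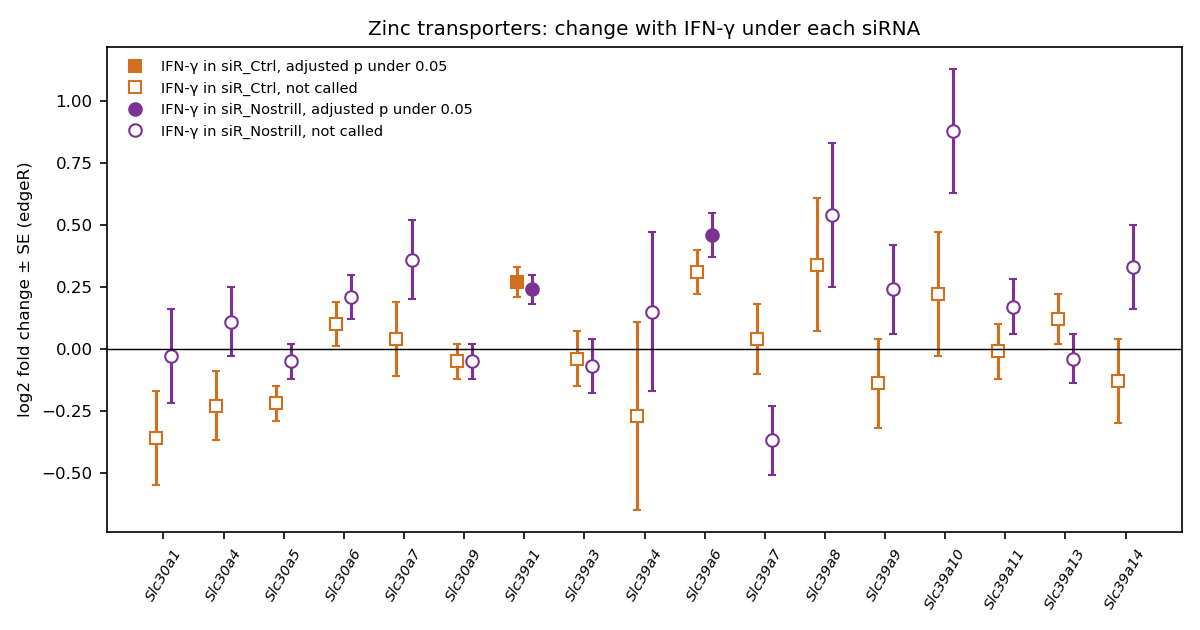
Log2 fold change with IFN-γ ± SE from edgeR (vertical axis) of the 17 zinc transporter genes tested, with siR_Ctrl (squares) and siR_Nostrill (circles); filled symbols passed an adjusted p of 0.05. Slc39a1 passed in both, at 0.27 and 0.24, and Slc39a6 in siR_Nostrill, at 0.46.

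Genes for other metals were examined as lists. Their counts stand beside the same 5.45% and 6.78% of all genes called. Of 13 iron-handling genes tested, 2 rose in each IFN-γ comparison. Slc11a2, which encodes the iron importer DMT1, had a log2 fold change of 0.82 (SE 0.08, edgeR adjusted p = 4.22e-05) in siR_Ctrl, where it stood at 29.5 to 35.6 FPKM without and 48.3 to 56.3 FPKM with IFN-γ, and 0.94 (adjusted p = 1.32e-05) in siR_Nostrill. Fbxl5, an iron sensor that marks iron regulatory proteins for degradation, had 0.84 (edgeR adjusted p = 3.14e-05) and 0.98 (adjusted p = 8.46e-06). Of 10 oxidant-response genes 1 rose in each, Gclm, a subunit of the enzyme that starts glutathione synthesis, with 0.44 (adjusted p = 0.0495, overlapping groups) and 0.80 (adjusted p = 0.00101). Of 11 copper-handling genes none passed in edgeR in any of these comparisons, and the largest log2 fold changes were -0.34 for Sco1 in siR_Ctrl (adjusted p = 0.0681) and 0.74 for the copper pump Atp7a in siR_Nostrill (adjusted p = 0.261). At an unadjusted p under 0.05, 1 of the 11 passed in each, against 14.6% and 21.9% of all genes.

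The genes whose log2 CPM ran most like a member's over the 12 libraries were named as a description. For Mt2 they were Rchy1 (Pearson r = 0.995), Upp1 (0.993) and Idnk (0.989), and for Mt1 Tcirg1 (0.981), Plek2 (0.974) and Pnp (0.971). For Mt3 they were Layn (0.957), Ascc2 (0.936) and Ssbp2 (0.921). For Mtf1 they were Atr (0.979), Trip12 (0.953) and Cpeb4 (0.951), and for Slc30a1 Ddb1 (0.954), Timm29 (0.954) and Timp2 (0.923). For Slc39a10 they were Hus1 (0.986), Sppl2a (0.98) and Arid5b (0.979), and for Slc39a14 Xpnpep3 (0.986), Stk35 (0.983) and Gm42226 (0.983). All these points share the libraries with their groups and length trend. Among the members, Mt1 and Mt2 ran together most closely (r = 0.95), then Slc39a10 and Slc39a14 (0.85), and Mt3 ran less closely with Mt1 (0.28) and Mt2 (0.45). All r values of Mt3 include the libraries by which it was chosen and rest on 3 to 25 reads a library. They are therefore not separate evidence on how Mt3 behaves.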

How the data were processed

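The data were 12 libraries of poly(A) RNA, sequenced on the DNBSEQ platform. The authors trimmed reads with SOAPnuke and aligned them to GRCm38.p6 with HISAT2 and Bowtie2; the counting tool and its use of strand were not given in the sources used. The authors then derived, for each gene, estimated counts of reads, FPKM and TPM (the last was not analysed), and these were deposited without pooling replicates. Of the 15002 genes listed, 90.6 to 91.6% per library had an exactly whole count (no tolerance, zeros included), and the rest were rounded. Counts were tested with edgeR 4.0.16 (R 4.3.3; TMM, filterByExpr, quasi-likelihood, all 12 libraries, two-sided, Benjamini-Hochberg over 11900 genes, threshold 0.05), after a check on simulated data. Alternatives were DESeq2 1.42.0 and its size factors, other count filters, a fit of only the groups compared, a replicate block, removal of the length trend by lowess (span 0.3), limma 3.58.1 on log2(FPKM + 1) or log2(FPKM + 0.1), and leaving out each library.

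Coordinates and promoters are from RefSeq for GRCm38.p6, and transcripts from GENCODE. Of the 7 members, 6 had a promoter. All members were named in every comparison; of the other lists (zinc, copper and iron handling, oxidant response), the genes called, or else the one with the largest change; for likeness, the 3 genes with the highest r. The members and lists were chosen with earlier results of these data known.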

Additional observations from a re-analysis of the deposited data

How the results depend on the processing

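No called change of the 7 members reversed. The next counts cover the comparisons that carry a test, and also Mt3 with siR_Nostrill without IFN-γ. Of 542 member values under alternatives, 516 stayed on their side of the threshold. A call was lost in 20, all of Mt1 with IFN-γ, and gained in 6, all of Slc39a10 with IFN-γ in siR_Nostrill. Mt3 is left out of the counts of members called with IFN-γ, since its choice used these libraries. In siR_Ctrl the members called (2) became 1 with only the groups compared or the replicate block, and 1 to 2 with 1 library left out. The share of all genes called was 2.91%, 5.41% and 4.07% to 4.9% in that order, against 5.45%. In siR_Nostrill (2) they became 1 with a mean of at least 5 CPM and 3 with DESeq2, only the groups compared or the length trend removed. The share of all genes called was 7.14%, 10.5%, 17% and 19% in that order, against 6.78%. With 1 library left out they were 1 to 3 in siR_Nostrill, where 4.08% to 9.47% of all genes were called. Zinc transporters called in siR_Ctrl (1) became 3 with DESeq2, 2 with the replicate block or the length trend removed, 0 with only the groups compared or any limma fit, and 0 to 1 with 1 library left out; in siR_Nostrill (2) they became 1 with DESeq2 size factors, no filter or limma on filtered genes, 5 with only the groups compared, 6 with the length trend removed, and 0 to 3 with 1 library left out. In siR_Ctrl the share of all genes called was 6.33% with DESeq2, 11.1% with the length trend removed and 3.73% to 4.73% with limma. In siR_Nostrill it was 6.9% with DESeq2 size factors, 4.86% with no filter and 7.9% to 7.96% with limma on filtered genes. No count of members is given for siR_Nostrill with IFN-γ, since that contrast chose the set. The cause of these shifts was not tested.

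Leaving out siR_Ctrl replicates 1, 2 or 3, siR_Ctrl + IFN-γ replicates 1 or 2, siR_Nostrill replicate 2, or siR_Nostrill + IFN-γ replicates 1 or 2 ended the call of Mt1 in siR_Ctrl. In siR_Nostrill it ended without siR_Ctrl replicates 2 or 3, siR_Ctrl + IFN-γ replicate 1, siR_Nostrill replicates 2 or 3, or any siR_Nostrill + IFN-γ library. Same-numbered libraries deviated together in only 8 of 18 pairs (r over 0.1, range -0.495 to 0.725), so the numbers were not taken as pairs. With the replicate block Mt1 had adjusted p = 0.059 in siR_Ctrl and 0.0585 in siR_Nostrill, and Slc39a10 in siR_Nostrill had 0.0425. Apart from Mt3, which is not tested here, the members called with the block were Mt2 in siR_Ctrl, and Mt2 with Slc39a10 in siR_Nostrill. In all, 644, 943, 18, 32 and 0 genes were called with the block, against 649, 807, 26, 51 and 0. The order is IFN-γ in siR_Ctrl, IFN-γ in siR_Nostrill, siR_Nostrill without IFN-γ, siR_Nostrill with IFN-γ and interaction. All-gene counts were 1321, 2257, 408, 1538 and 0 with the length trend removed, 838, 1330, 265, 596 and 0 with DESeq2, and 341, 1997, 0 and 0 for the first 4 with only the groups compared. The fourth was also 105 with a mean of at least 5 CPM, 30 with no filter, and 114 to 135 with limma, and the third was 17 with limma on all genes. With 1 library left out they were 489 to 589, 491 to 1138, 0 to 37, 0 to 72 and 0. The third was 0 without siR_Ctrl replicate 1, any siR_Nostrill library or siR_Nostrill + IFN-γ replicate 2; the fourth was 0 or 1 without siR_Ctrl + IFN-γ replicate 1 or any siR_Nostrill + IFN-γ library. Depth limits Mt3, at 3 to 25 reads a library.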
